A study of Mus musculus with 5 samples.

Results

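Hypoxia-inducible genes outside glycolysis were examined here as 10 named genes: Hif1a, Vegfa, Ndrg1, Slc2a1, Bnip3, Egln1, Egln3, Adm, Pdk1 and Ankrd37. They were chosen by symbol from the 14161 genes listed in any library, and all 10 had a row in at least 1 library. RNA was sequenced from bone mesenchymal stem cells, the adherent stromal cells of marrow, grown from the femurs of C57BL/6 mice 6 to 8 weeks old in medium with 12% serum and used at passages 1 to 3. Bmal1-knockout cells (genotype Bmal1-/-, 3 libraries) were compared with wild type cells (2 libraries). Bmal1, listed under its symbol Arntl, encodes the partner of CLOCK in the circadian clock. Which part of the gene was deleted, whether by germline or conditional deletion, and the oxygen level of the cultures are not given here by any source used. Nothing in the labels says whether the libraries of a genotype came from separate mice or cultures, so every p-value measures the spread between these libraries, which may be technical.

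HIF-1 is a transcription factor of an oxygen-regulated α subunit, encoded by Hif1a, and the constant β subunit ARNT. With oxygen present, prolyl hydroxylases of the EGLN family mark the α subunit for capture by the VHL protein and destruction. With oxygen scarce it persists and switches on genes of vessel growth, glucose uptake, mitochondrial turnover and its own feedback. The oxygen step acts on the protein, so the Hif1a transcript does not measure HIF-1 activity. HIF-1 binds DNA at a short core of 5 letters, ACGTG, whose first letter can also be G (then GCGTG). BMAL1 and CLOCK bind the E-box CACGTG, which holds the HIF core on both strands, and both the α subunit and BMAL1 belong to the same bHLH-PAS protein family.

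Promoter stretches show how these cores lie at 4 genes whose level was lower in the knockout libraries. Of the 9 genes with a promoter in the RefSeq table, which leaves out Ndrg1, Hif1a and Bnip3 hold the E-box in this window. Slc2a1 and Pdk1 hold a HIF core without it. Each line gives the 250 bases before the RefSeq start (build GRCm38.p6), 5′ to 3′ on the gene's strand, with every HIF core and E-box on either strand in capitals (a capital run that does not read as one reads so on the other strand).
Hif1a, chr12:73907617-73907866, plus strand: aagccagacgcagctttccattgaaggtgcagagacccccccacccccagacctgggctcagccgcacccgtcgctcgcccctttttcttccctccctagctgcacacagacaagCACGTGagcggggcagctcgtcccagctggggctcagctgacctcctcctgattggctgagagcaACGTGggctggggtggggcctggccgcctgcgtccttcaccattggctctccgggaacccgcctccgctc
Bnip3, chr7:138909507-138909756, minus strand: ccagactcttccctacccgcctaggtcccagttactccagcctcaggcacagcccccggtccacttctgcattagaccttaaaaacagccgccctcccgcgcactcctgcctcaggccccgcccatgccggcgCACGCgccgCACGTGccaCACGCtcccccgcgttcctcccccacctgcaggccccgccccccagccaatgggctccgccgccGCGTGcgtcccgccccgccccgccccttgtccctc
Slc2a1, chr4:119108495-119108744, plus strand: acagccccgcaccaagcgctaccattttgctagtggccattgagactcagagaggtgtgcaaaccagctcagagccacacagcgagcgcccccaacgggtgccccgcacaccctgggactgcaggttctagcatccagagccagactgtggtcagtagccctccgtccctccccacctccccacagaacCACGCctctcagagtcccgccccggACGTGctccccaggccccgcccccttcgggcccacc
Pdk1, chr2:71872974-71873223, plus strand: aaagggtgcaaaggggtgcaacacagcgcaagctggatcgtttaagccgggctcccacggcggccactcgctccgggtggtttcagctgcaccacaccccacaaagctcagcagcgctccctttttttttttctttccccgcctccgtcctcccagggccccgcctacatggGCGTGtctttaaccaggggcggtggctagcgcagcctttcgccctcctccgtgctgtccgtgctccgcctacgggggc
In Hif1a the E-box began 135 bases before the start, and in Bnip3 108 bases before it. The start used for Hif1a lies within the gene's listed span (73901324 to 73947554), not at its listed start. A further HIF core of Hif1a began 70 bases before the start, and the one nearest the start of Slc2a1 36 bases before it. All 9 genes matched to the table held a HIF core of either form in at least 1 window, against 38.6% of the 32841 promoter windows of that length in the table, and 2 held the E-box, against 6.02%; an E-box counts as a HIF core too. Vegfa and Pdk1 each have a second window in the table, and 1 of the windows of each gene held no match. For Vegfa the empty window was the one before the listed start of the gene. Its matches lay in the other window (46025164 to 46025413), within the gene's span. The window of Ankrd37 likewise lay within that gene's listed span. For Pdk1 the printed window held the match. Genes were counted by any of their windows while the shares are of single windows, so the comparison is not like for like. The letters were counted only; no binding was measured here.

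Every one of the 7 genes with enough counts for a test was lower in the knockout libraries. The 7 are Hif1a, Vegfa, Ndrg1, Slc2a1, Bnip3, Egln1 and Pdk1. Vegfa, Ndrg1 and Hif1a passed at an adjusted p under 0.05 (edgeR's quasi-likelihood test with Benjamini-Hochberg adjustment over all 3710 genes tested), none was called higher (0 also at an unadjusted p under 0.05, with voom, and with DESeq2 among the 5 to which it gave an adjusted p) and 4 did not pass. At an unadjusted p under 0.05, 6 of the 7 were lower. The exact share of all genes at that threshold was not counted, but it is large. Pdk1, at an unadjusted edgeR p of 0.0305, ranked only 876 by p among the 3710 genes, either direction. At an adjusted p under 0.05, 8.14% of all genes tested passed as lower and 8.19% as higher. The median log2 fold change of the 7 was -0.85, beside 0.01 over all genes tested. The named genes were chosen with earlier results of these data known. No comparison of them with all genes tested, here or below, is independent of that choice. The levels of the genotypes did not overlap for any of the 7, where 21.6% of all genes tested were lower and 21.2% higher without overlap. Egln3, Adm and Ankrd37 had too few counts for the test. A gene can pass the count filter by being high in 1 genotype alone. Pdk1 passed only through the wild type libraries, and Ndrg1 needed them as well. The direction of these genes among the 7 is therefore not independent of the filter.

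**Figure D1:**
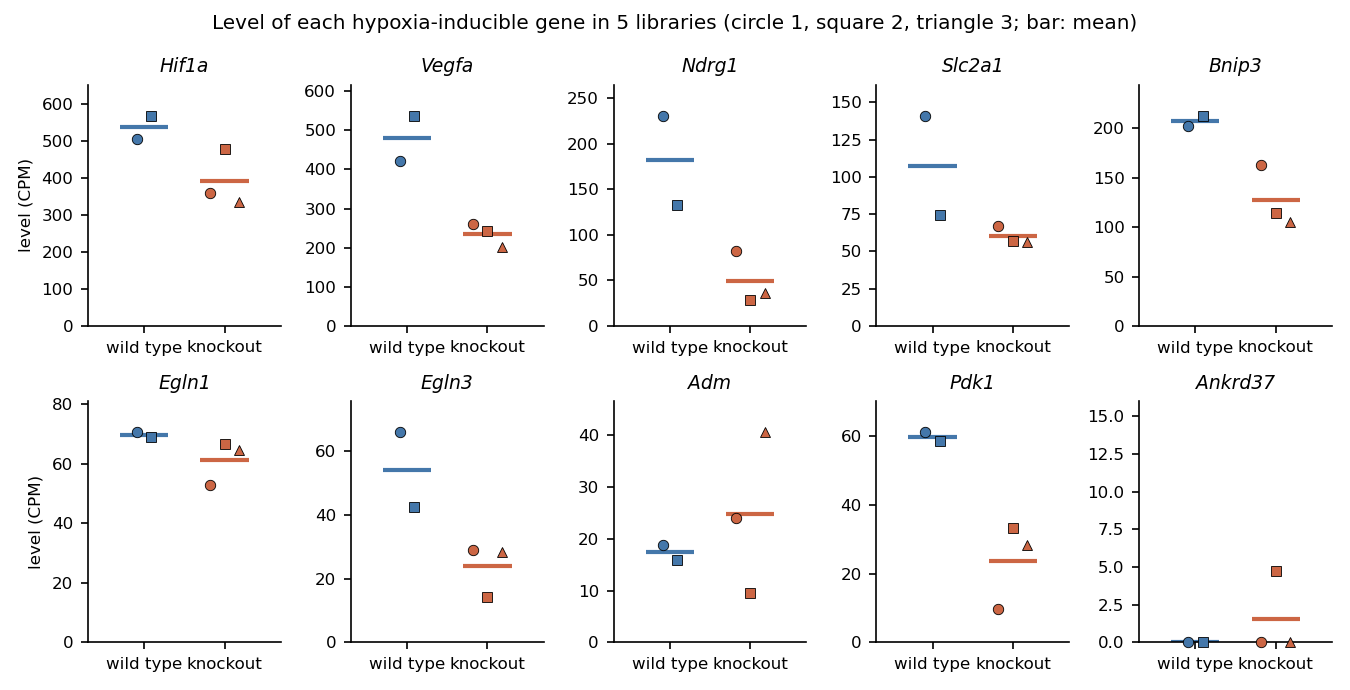
Level in counts per 1e6 (CPM, y axis) of the 10 genes in 2 wild type (blue) and 3 knockout (orange) libraries, each panel with its own axis from 0; points are libraries and bars are means. Hif1a, Vegfa, Ndrg1, Slc2a1, Bnip3, Egln1, Egln3 and Pdk1 lie lower in all 3 knockout libraries, Adm overlaps and Ankrd37 had 1 count in all.

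Libraries were shallow: they held 211623 to 281990 expected counts, and 1 count was worth 4.05 to 5.32 CPM (counts per 1e6, scaled to the TMM-adjusted sum of the genes tested). The 3 counts that a count of 0 allows come to 12.1 to 15.9 CPM, depending on the library and for counting error only. Replicate libraries differed by more than counting noise, with a chi-square per gene of 1.36 to 1.74, so no pair was merged as 1 library deposited a second time; this does not tell technical from biological spread. Counts of Arntl, the targeted gene, were 4, 1 and 2 (knockout) and 5 and 0 (wild type), too few to check a label. Stromal and macrophage transcripts were both abundant. The 10 stromal markers summed to 12580 to 13580 CPM in the knockout and 4797 to 4863 CPM in the wild type, and 5 of 7 tested rose. Those 5 encode matrix or secreted proteins (Col1a1, Col1a2, Col3a1, Sparc and Cxcl12). The receptor genes Pdgfra (-0.34, edgeR adjusted p = 0.593) and Pdgfrb (0.15, 0.872) did not pass. Thy1, Lepr and Eng were too low to test, and Thy1 had 5 counts in all libraries together. The 12 macrophage markers summed to 9802 to 10840 CPM (knockout) and 15960 to 16830 CPM (wild type), and 8 of 12 fell (5 with DESeq2, of 11 to which it gave an adjusted p). Of the 6 endothelial markers Vwf was listed in no library and 2 were tested, of which none passed (Pecam1 at -0.37, edgeR adjusted p = 0.586, and Emcn; 0 at an unadjusted p under 0.05, with voom, and with DESeq2 for the 1 to which it gave an adjusted p).

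Hif1a (Entrez gene 15251, chromosome 12, 73901324 to 73947554, GRCm38.p6) encodes the oxygen-regulated subunit itself. The knockout libraries gave 75, 101 and 83 counts of it, the wild type libraries 108 and 107. As levels these were 360, 480 and 336 CPM against 507 and 569. The second knockout library lay close below the wild type and the other two lay further down. The knockout mean was 392 ± 77.2 CPM (SD, n = 3) and the wild type mean 538 ± 43.4 (n = 2), a log2 fold change of -0.46 (SE 0.17, 95% interval -0.79 to -0.13; edgeR adjusted p = 0.0401). This call rests on each of 4 libraries. It was lost without the first knockout library (-0.40, edgeR adjusted p = 0.0854), the third (-0.35, 0.198), the first wild type library (-0.56, 0.128) or the second (-0.38, 0.392). DESeq2 did not call it either (-0.46, adjusted p = 0.201), and over the 14 alternatives its adjusted p ranged from 0.0137 to 0.392. GENCODE places 330 exon bases of Hif1a opposite Gm15283, and since no source used here gives the strand of the libraries, reads of the pair cannot be told apart.

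Vegfa (Entrez gene 22339, chromosome 17, 46016993 to 46032377) encodes the main growth factor of blood vessels and is a classical HIF target. Knockout counts were 54, 51 and 50 and wild type counts 90 and 101, or 259, 242 and 202 CPM against 423 and 537. All 3 knockout libraries lay at about the same level, well below either wild type library. Vegfa fell 2.04-fold, from 480 ± 80.6 CPM (SD, n = 2) to 235 ± 29.3 (n = 3), a log2 fold change of -1.03 (SE 0.19; edgeR adjusted p = 2.81e-06). The call held in 14 of 14 alternatives, with adjusted p from 6.59e-07 to 0.0268. Of the 9 other VEGF ligands and receptors, 8 were listed and 2 tested, and none passed (edgeR; 0 at an unadjusted p under 0.05, with DESeq2 and with voom). The coreceptor Nrp2 was at -0.27 (edgeR adjusted p = 0.555), and Nrp1, its relative, was at 0.16.

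Ndrg1 (Entrez gene 17988, chromosome 15, 66929318 to 66969641) encodes a stress-responsive protein of differentiating cells that is widely used as a marker of hypoxia. Knockout counts were 17, 6 and 9 and wild type counts 49 and 25, or 81.7, 28.5 and 36.4 CPM against 230 and 133. The spread within each genotype was wide, yet the highest knockout library lay below the lowest wild type one. Ndrg1 fell 3.77-fold, from 182 ± 68.8 CPM (SD, n = 2) to 48.9 ± 28.7 (n = 3), a log2 fold change of -1.91 (SE 0.34; edgeR adjusted p = 7.89e-07). Among the 3710 genes 0.404% had a more negative value. The call held in 14 of 14 alternatives, with log2 fold changes from -2.45 without the first knockout library to -1.47 without the first wild type library and adjusted p from 1.42e-07 to 0.036. Of its exon bases 556 lie opposite Gm17035 and Gm2895. Its relatives Ndrg2, Ndrg3 and Ndrg4 were listed, and none had enough counts for a test.

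Bnip3 (Entrez gene 12176, chromosome 7, 138890836 to 138909506) encodes a receptor of the outer mitochondrial membrane that sends mitochondria to autophagy. Knockout counts of 34, 24 and 26 stood against wild type counts of 43 and 40, or 163, 114 and 105 CPM against 202 and 213. The wild type libraries lay close together and above all 3 knockout libraries. The log2 fold change was -0.71 (SE 0.27, 95% interval -1.24 to -0.18; edgeR adjusted p = 0.0532) and did not pass. It passed in 4 of 14 alternatives, with voom (-0.73, adjusted p = 0.0396), RLE scaling (-0.71, edgeR adjusted p = 0.049), a stricter filter on low counts (-0.74, 0.026) and without the first knockout library (-0.91, 0.0175). Over all 14 the adjusted p ranged from 0.0175 to 0.274. GENCODE places 504 of its exon bases opposite Gm45507. Of 11 mitophagy receptors and autophagy partners, all were listed and 6 tested, and none passed with edgeR or voom, or with DESeq2 among the 4 to which it gave an adjusted p (1, Gabarap, at an unadjusted edgeR p under 0.05). Of the 6, 5 had a negative log2 fold change (median -0.41). The most abundant, the cargo adaptor Sqstm1, was at -0.42 (edgeR adjusted p = 0.262; 580 exon bases opposite Mrnip).

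Slc2a1 (Entrez gene 20525, chromosome 4, 119108745 to 119137330) encodes GLUT1, the basal glucose transporter. Its knockout counts were 14, 12 and 14, its wild type counts 30 and 14. The levels were 67.3, 57.1 and 56.7 CPM against 141 and 74.4, so the second wild type library stood just above the knockout and the first far above. The log2 fold change was -0.85 (SE 0.37, 95% interval -1.58 to -0.13; edgeR adjusted p = 0.0983). Without the first wild type library it was -0.32 (edgeR adjusted p = 0.784), and no alternative that gave a value passed (0 of 13, adjusted p from 0.0565 to 0.784). Exons of Slc2a1 lie opposite those of Gm12868 over 105 bases. None of the other glucose transporters in the list was tested (5 of 6 listed).

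Pdk1 (Entrez gene 228026, chromosome 2, 71873215 to 71903858) encodes a kinase that switches off pyruvate dehydrogenase and so holds pyruvate back from the mitochondria. It had 2, 7 and 7 counts against 13 and 11, or 9.61, 33.3 and 28.3 CPM against 61.1 and 58.5. The first knockout library stood at a level that a count of 0 also allows. The log2 fold change was -1.30 (SE 0.60, 95% interval -2.47 to -0.12; edgeR adjusted p = 0.129), and 0 of the 12 alternatives that gave a value passed (adjusted p from 0.0996 to 0.493). Of the pyruvate dehydrogenase complex with its other kinases and phosphatases, 10 were listed and 1 tested. That 1, the catalytic subunit gene Pdha1, was at 0.78 (edgeR adjusted p = 0.0527; 603 exon bases opposite Map3k15), and its adjusted p was 0.0491 without the second wild type library, where it was at 1.22, and 0.0468 with voom. Pdk3, another kinase of the complex, chosen after its values were seen, had 9, 7 and 10 knockout counts against 2 and 1 in the wild type. Its count ratio was 5.22 (1.6 to 26.9), with an exact interval for counting error only and no test, so Pdk1 and Pdk3 lay on opposite sides of the wild type.

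The 2 hydroxylases of the group differed in their values. Egln1 (Entrez gene 112405, chromosome 8, 124908587 to 124949254), which encodes PHD2, the main oxygen sensor of HIF-1, had 11, 14 and 16 counts against 15 and 13. Its levels, 52.9, 66.6 and 64.7 CPM against 70.5 and 69.1, did not overlap but lay close together, and the log2 fold change was -0.18 (SE 0.40, 95% interval -0.97 to 0.61; edgeR adjusted p = 0.821). Changes within that interval are not excluded. Egln3 (Entrez gene 112407, chromosome 12, 54178981 to 54203874), which encodes PHD3, a strongly hypoxia-inducible feedback member, had 6, 3 and 7 counts against 14 and 8. Its levels were 28.8, 14.3 and 28.3 CPM against 65.8 and 42.5, with no overlap. The ratio of summed counts was 0.438 (95% exact interval 0.215 to 0.873, counting error only), from 0.365 to 0.565 with each library left out. Whether Egln1 and Egln3 differ in their response was not tested.

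Adm (Entrez gene 11535, chromosome 7, 110627657 to 110629820), the vessel-dilating peptide adrenomedullin, had 5, 2 and 10 knockout counts against 4 and 3 wild type counts. The genotypes overlapped, with 24.0, 9.51 and 40.5 CPM against 18.8 and 15.9. Its count ratio was 1.46 (0.577 to 4.17), and 0.958 without the third knockout library, which held most of the knockout counts. Of its receptor genes and its relative Adm2, 4 of 5 were listed and none was tested. Ankrd37 (Entrez gene 654824, chromosome 8, 45996908 to 46000414), an ankyrin repeat protein induced by HIF-1, had 1 count, in the second knockout library, and gives no comparison.

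**Figure D2:**
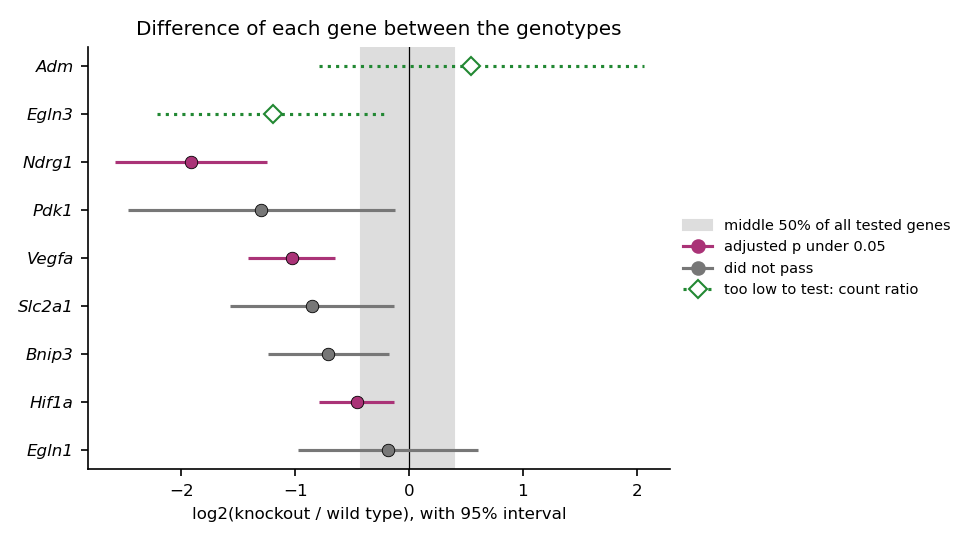
The log2 ratio of knockout to wild type (x axis) with its 95% interval for the 7 tested genes (circles; purple where the adjusted p was under 0.05) and, from summed counts with counting error only, for Egln3 and Adm (diamonds); the grey band holds the middle 50% of all tested genes, from -0.42 to 0.40. Ndrg1 at -1.91 and Vegfa at -1.03 lie outside the band with their whole intervals.

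Per length, on the deposited FPKM scale (fragments per kilobase and 1e6 reads), Vegfa, Bnip3 and Hif1a were the most abundant of the 10 in both genotypes. In the wild type libraries Vegfa led with a level of 106 ± 17.6 FPKM (SD, n = 2), then Bnip3 (90.3 ± 4.35) and Hif1a (84.3 ± 8.98). The lower Vegfa library stood just above the higher Bnip3 one (93.9 against 93.3 FPKM), and the levels of Bnip3 and Hif1a overlapped. Below them came Ndrg1 (46.1 ± 16.9) and Slc2a1 (31.1 ± 13.2), which overlapped, then Egln3 and Egln1, which overlapped too, and then Adm, Pdk1 and Ankrd37. In the knockout libraries Hif1a (58.4 ± 11.3, n = 3), Vegfa (55.1 ± 5.80) and Bnip3 (54.5 ± 15.4) could not be ordered, since their values overlapped. Slc2a1 followed at 17.1 ± 2.31 FPKM, below all values of Bnip3, and from there to Ankrd37 each gene overlapped with the next. Ndrg1 thus took rank 4 in the wild type, at 58.1 and 34.1 FPKM, and rank 7 in the knockout, at 21.1, 7.01 and 8.81.

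Set against Hif1a in the same library, Vegfa and Pdk1, 2 of the 9 other genes, were lower in all 3 knockout libraries. Among the 6 other genes that were tested, they are also 2. Of all 3709 other genes tested, 5.37% were lower and 40.8% higher without overlap on that scale. Since Pdk1 passed the count filter only through the wild type libraries, its place here is not independent of the filter. Per 100 FPKM of Hif1a, the level of Vegfa was 111, 75.7 and 103 FPKM (knockout) against 121 and 131 (wild type), and that of Pdk1 was 2.44, 6.32 and 7.68 against 10.8 and 9.06. For Ndrg1 these values were 37.9, 9.89 and 18.1 against 74.5 and 37.6, so the first knockout library reached the second wild type one. Slc2a1, Bnip3, Egln1, Egln3, Adm and Ankrd37 overlapped as well. Bnip3 stood at 129.6, 67.7 and 89.2 in the knockout against 112 and 103, on both sides of the wild type.

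**Figure D3:**
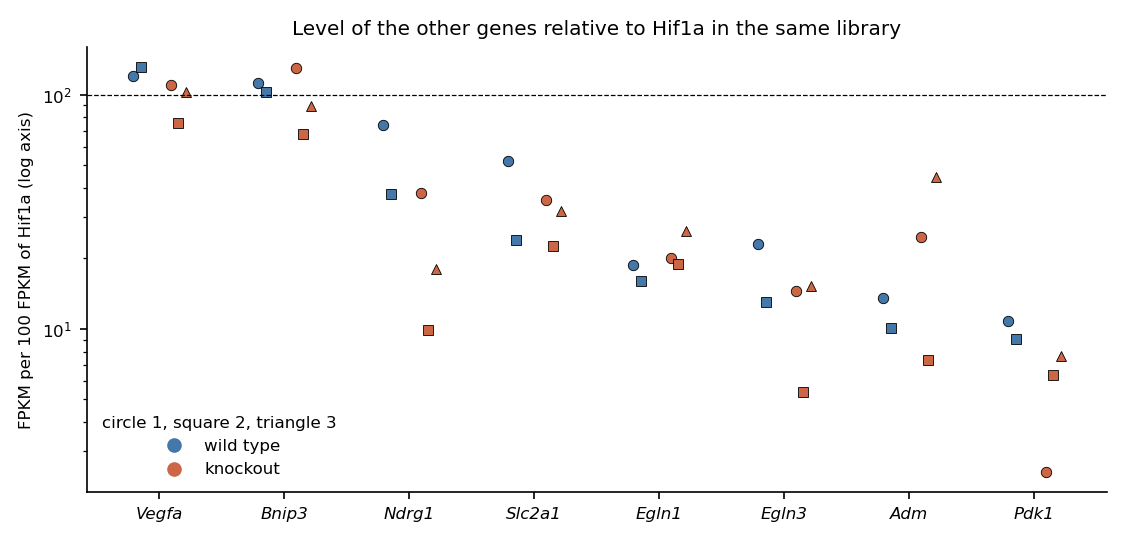
FPKM of 8 genes per 100 FPKM of Hif1a in the same library (log y axis) in wild type (blue) and knockout (orange) libraries; the dashed line marks the level of Hif1a, and Ankrd37 is left out as it was at 0 in 4 libraries. Vegfa and Pdk1 are the 2 genes whose genotypes do not overlap.

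Summed over the 9 genes other than Hif1a, the level was 687, 571 and 562 CPM (knockout) against 1212 and 1143 (wild type), while Hif1a alone went from 538 to 392 CPM. With 5 libraries in 2 separate groups no correlation between Hif1a and its targets was computed.

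The other parts of the oxygen-sensing machinery were mostly too low to test. Of the 17 genes for HIF subunits, hydroxylases, the VHL complex and coactivators, 16 had a row and 5 enough counts for the test. Cited2 rose and Ep300 fell. The median log2 fold change of the 5 was 1.08. Cited2, Epas1, Siah1a and Tceb2 passed the count filter only through knockout libraries, and Ep300 needed the wild type ones. That median therefore does not describe the list, and the directions of these genes are not independent of the filter. Voom called 0 of the 5, and DESeq2 gave none of them an adjusted p. Cited2, which competes with HIF for its coactivators, had 12, 18 and 14 counts in the knockout against 6 and 4 and rose (1.39, edgeR adjusted p = 0.0395). The call for Cited2 was lost without the second knockout (1.19, edgeR adjusted p = 0.18), the third knockout (1.50, 0.0565), the first wild type (1.60, 0.166) or the second wild type library (1.21, 0.292). Ep300, one of those coactivators, had 11, 9 and 11 counts against 16 and 23 and fell (-1.06, edgeR adjusted p = 0.0467). Its call was lost without the second knockout (-0.997, edgeR adjusted p = 0.12), the third knockout (-1.02, 0.108) or the second wild type library (-0.69, 0.525). Epas1, the gene of the related HIF-2 α subunit, had 17, 10 and 13 counts against 4 and 7 and did not pass (1.11, edgeR adjusted p = 0.124), so it lay above the wild type where Hif1a lay below. Arnt, the partner of both, had 6, 7 and 10 counts against 17 and 6, and Vhl 2, 5 and 3 against 8 and 6; neither was tested.

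Other hypoxia-inducible genes outside glycolysis went both ways. Of 40 in the list, 39 had a row and 17 could be tested. Of these 3 rose, 2 fell and 12 missed the threshold, with a median log2 fold change of -0.33. Over all genes tested, 8.19% passed as higher and 8.14% as lower. The 3 that rose act on collagen: Lox, which cross-links it (1.47, edgeR adjusted p = 1.97e-23), its relative Loxl2 (1.06, 1.74e-07; 301 exon bases opposite Gm27177) and Plod2, a lysyl hydroxylase (1.11, 0.00342; 346 exon bases opposite Gm38391; named after its values were seen). Lox stood at 1462 ± 57.8 CPM (SD, n = 3) against 526 CPM in each wild type library. Other collagen-modifying genes of the list, named after their values were seen, did not pass. They were P4ha1 (0.24, edgeR adjusted p = 0.598), P4ha2 (0.87, 0.133) and Plod1 (-0.33, 0.527). Hmox1, the haem-degrading enzyme, fell from 730 ± 42.4 CPM (n = 2) to 354 ± 53.9 (n = 3), a log2 fold change of -1.05 (edgeR adjusted p = 2.8e-09). Cxcr4, the receptor of the chemokine CXCL12, fell on low counts, 3, 6 and 2 against 15 and 14 (-2.09, edgeR adjusted p = 0.00752), a call lost without the first wild type library (-2.14, edgeR adjusted p = 0.217), without the second (-2.05, 0.245), with voom (-2.19, adjusted p = 0.0804) or with the replicate number as a block (-1.74, edgeR adjusted p = 0.0808). Cxcr4 passed the count filter only through the wild type libraries, so its direction is not independent of the filter. In this list DESeq2, which gave an adjusted p for 15 of the 17 and none for Cxcr4, and voom each called 3 higher and 1 lower.

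Glycolytic enzymes, another set of HIF targets, were compared as a list of 19 of which 16 could be tested: 2 fell, 14 missed the threshold and none was called higher (0 also at an unadjusted p under 0.05, with DESeq2 and with voom). Over all genes tested, edgeR called 8.14% lower, and the median log2 fold change was 0.01. In the list DESeq2 called 0 lower, of 15 to which it gave an adjusted p, and voom 3. Of the 16, 15 had a negative log2 fold change, and the median was -0.38, nearer 0 than the -0.85 of the hypoxia-inducible genes; that difference was not tested. Hk2, the inducible hexokinase, was at -1.08 (edgeR adjusted p = 0.0227), a call lost without the first knockout (-1.01, edgeR adjusted p = 0.0672), the second knockout (-0.95, 0.108) or the first wild type library (-0.64, 0.511). Gapdh was at -0.32 (edgeR adjusted p = 0.0447), a call lost without the second knockout (-0.29, edgeR adjusted p = 0.171), the third knockout (-0.28, 0.172), the first wild type (-0.35, 0.259) or the second wild type library (-0.32, 0.327).

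Most macrophage transcripts moved with the hypoxia-inducible genes. Of the 12 markers 11 had a negative log2 fold change, and Mrc1 was at 0.18 (edgeR adjusted p = 0.711). Levels of Mrc1, Adgre1 and Ptprc overlapped between the genotypes. Mpeg1, a pore-forming protein of macrophages, fell by 0.98 on the log2 scale (edgeR adjusted p = 1.88e-12), and Lyz2, their lysozyme, by 0.67 (edgeR adjusted p = 1.79e-10). The fibrillar collagen genes Col3a1 and Col1a1 were at 1.38 and 1.63 in the same libraries (edgeR adjusted p = 3.85e-33 and 1.76e-32). The 10 hypoxia-inducible genes summed to 1047, 1051 and 898 CPM (knockout) against 1719 and 1711 (wild type). Divided by the summed level of the 12 macrophage markers, a ratio chosen after the values were seen, they came to 96.6, 107 and 89.5 CPM per 1000 marker CPM (knockout) against 102 and 107 (wild type), and the genotypes overlapped. Lyz2 gave 65.1% to 67.2% of that marker sum.

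On the same ratio 3 of the 7 tested genes stayed lower without overlap, namely Vegfa, Ndrg1 and Pdk1, and 1, Egln1, was higher without overlap. Of all 3710 genes tested, 3.96% were lower and 55.8% higher without overlap on this ratio. Pdk1 passed the count filter only through the wild type libraries and Ndrg1 needed them as well. Their place among the lower genes, with or without Lyz2 in the sum, is therefore not independent of the filter. Ndrg1 stood at 7.53, 2.91 and 3.63 CPM per 1000 marker CPM against 13.7 and 8.33, and Vegfa at 23.9, 24.7 and 20.2 against 25.1 and 33.6. Hif1a stood at 33.2, 49.0 and 33.5 against 30.1 and 35.6 and overlapped. With Lyz2 taken out of the marker sum, Ndrg1 and Pdk1 were lower without overlap, as were 3.64% of all genes tested (56.8% were higher), and Vegfa overlapped (69.1, 74.1 and 61.4 against 71.9 and 99.9). In bulk RNA fewer cells of a type and less RNA per cell cannot be told apart, and the part of macrophages in the lower values of the hypoxia-inducible genes was not tested.

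**Figure D4:**
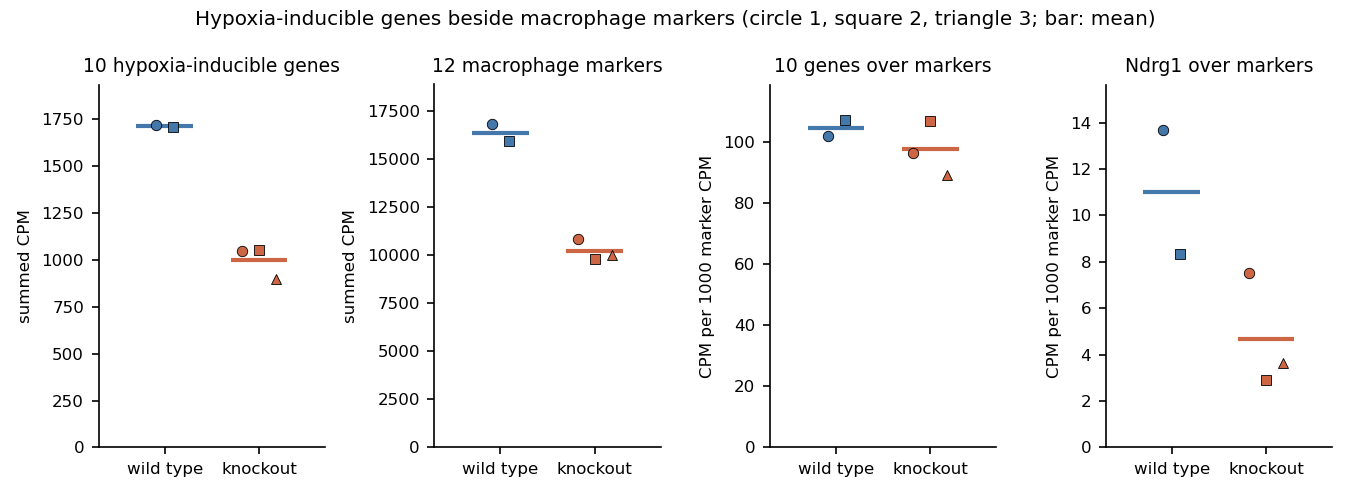
From left to right: summed CPM of the 10 hypoxia-inducible genes, summed CPM of the 12 macrophage markers, the first sum per 1000 CPM of the second, and Ndrg1 per 1000 CPM of the markers, in wild type (blue) and knockout (orange) libraries with bars at the means. Both sums are lower in all knockout libraries. Their ratio overlaps, at 96.6, 107 and 89.5 (knockout) against 102 and 107 (wild type). Ndrg1 over the markers stays lower, at 2.91 to 7.53 against 8.33 and 13.7.

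The genes whose pattern over the 5 libraries came nearest to that of Hif1a, out of 2929 with a mean of at least 50 CPM, were Rpl22, Ccl5 and Lmbrd1. The measure was the root mean square difference of centred log2 CPM, which was 0.059 for Rpl22, 0.072 for Ccl5 and 0.075 for Lmbrd1. None of the 3 passed the test between genotypes (edgeR; 0 at an unadjusted p under 0.05; adjusted p = 0.492, 0.27 and 0.418). Ccl5, a chemokine, had 76.9, 95.1 and 64.7 CPM (knockout) against 113 and 122 (wild type). Clock, the partner of BMAL1, was at -0.35 (edgeR adjusted p = 0.442).

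**Figure D5:**
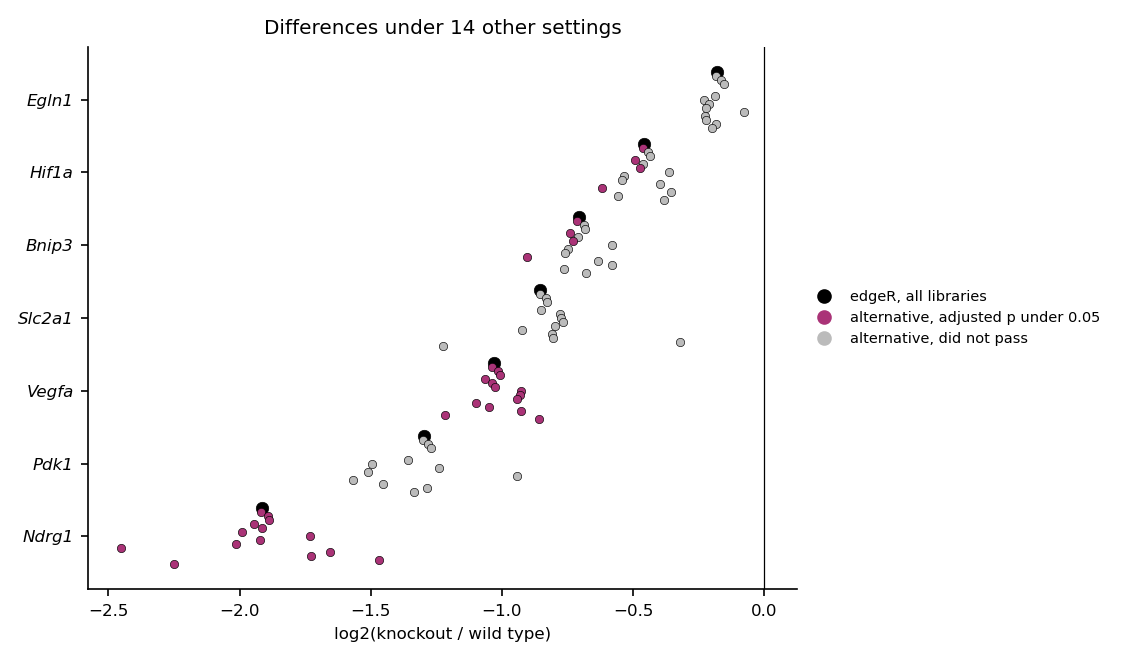
The log2 ratio of knockout to wild type (x axis) of the 7 tested genes in the edgeR test of all libraries (black) and under the alternatives that gave a value, up to 14 (purple where the adjusted p was under 0.05, grey where not). All values lie below 0; Vegfa and Ndrg1 passed in all 14, Hif1a and Bnip3 in 4 each, and Slc2a1, Egln1 and Pdk1 in 0.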

How the data were processed

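Total RNA gave 5 libraries; the authors deposited, per the file headers, an expected count and an FPKM value for every gene listed in a library, with a length in bases (unit other). Per the submitters' processing notes, HISAT2, StringTie, Bowtie2 and RSEM were used on mm10, without versions or roles; no source used here gives strand or filters. Absent genes count as 0. Expected counts were rounded (93.8% to 94.2% were whole within 0.005) and fitted with edgeR 4.0.16 in R 4.3.3: filterByExpr (minimum count 10, minimum total 15), TMM scaling and robust quasi-likelihood tests of genotype over all 5 libraries, with Benjamini-Hochberg adjustment over all tested genes. Standard errors come from the quasi-likelihood F. Count ratios of untested genes carry exact conditional 95% intervals. Levels between genes use the deposited FPKM.

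The named genes are the 10 members, up to 2 genes per direction and list by adjusted p (the most abundant tested gene where none passed), the 3 genes nearest Hif1a, and Arntl; others are said to be chosen later, and list members given only by counts or level were picked from the lists. Members and lists were chosen with earlier results of these data known. Alternatives were other scalings and filters, DESeq2 1.42.0, limma 3.58.1 (voom, and log2 of FPKM plus 1 or 0.1), the replicate number as a block and leaving out each library. Opposite exons come from GENCODE M21. The fit was tested on simulated data.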

Additional observations from a re-analysis of the deposited data

How the results depend on the processing

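All 93 values of the 7 tested hypoxia-inducible genes under the 14 alternatives were negative, and over all 27 tested named genes none of 362 values reversed, 48 lost a call and 9 gained one. Over all genes the 304 higher and 302 lower calls became 149 and 131 with DESeq2, 171 and 171 with limma on log2(FPKM + 1), and 157 and 157 on log2(FPKM + 0.1). With 1 library left out they ranged from 144 to 323 higher and from 146 to 287 lower; leaving out the first wild type library gave 144 and 154 and the second 153 and 146, where the lone wild type library is assumed to vary like the knockout ones. The hypoxia-inducible genes called lower numbered 2 to 4, Ndrg1 and Vegfa in every setting run. The labels give both genotypes the replicate numbers 1 and 2, but same-numbered libraries did not deviate together (correlations of deviations -0.011 and 0.029, with only 2 pairs); with the number as a block 229 higher and 212 lower genes and 2 of the hypoxia-inducible genes passed, without Hif1a (-0.36, adjusted p = 0.179). DESeq2 gave no adjusted p for Egln1, Pdk1, Cited2, Ep300, Cxcr4 and Lmbrd1, and Slc2a1, Egln1 and Pdk1 left the test under the stricter filter. Depth limits Egln1, Pdk1, Egln3, Adm and Ankrd37 most, with at most 16 counts in any library.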
